A study of Mus musculus with 30 samples.

Results

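The genes described here encode the eukaryotic translation initiation factors, and they were followed in 5 tissues of mice that lack Clpp. A gene was a member if its symbol began with Eif followed by a digit from 1 to 6; the Eif2ak genes, which encode kinases that act on eIF2, were left out. By this rule 37 of the 17097 genes measured were members, each read through 1 probe set: of those annotated to that gene alone, the brightest on average across 30 arrays. All 37 members were found under the same symbol in the RefSeq gene table. Initiation factors read by no such probe set, among them Eif4g1, Eif3a and Eif2s1, were not analysed here.

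The study compared Clpp knockout mice with wild-type littermates, all on the C57BL/6 background, in testis, brain, heart, liver and skeletal muscle. Each tissue had 3 knockout and 3 wild-type arrays, which gives 10 groups; ages are not given in the sources used here. Clpp encodes the proteolytic subunit of ClpXP, a protease of the mitochondrial matrix. The values are log2 expression levels from single-colour arrays, and the number of arrays limits their precision. The labels do not say whether the 3 arrays of a group came from 3 animals, so p-values measure the spread between these arrays, which may be technical.

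The targeted gene separated the genotypes. Over the 15 knockout arrays Clpp ranged from 2.93 to 3.99, and over the 15 wild-type arrays it ranged from 5.88 to 9.21, with no overlap. The defining markers of each labelled tissue were high there. In testis, wild-type replicate 3 had epididymal transcripts, with a mean of 10.96 over 3 epididymis markers while the other wild-type testis arrays stayed near the array median. In skeletal muscle, wild-type replicate 1 had sperm transcripts, with a mean of 5.69 over 12 markers against a median of 2.90. In heart, knockout replicates 2 and 3 had high atrial transcripts: Myl7, the atrial myosin light chain, read 12.63 and 12.79 there, 3.59 in knockout replicate 1 and 7.42, 3.81 and 2.95 in wild-type replicates 1 to 3. Counts in testis, muscle and heart are given below without these arrays too.

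Initiation is the step of protein synthesis at which most control is exerted. The small ribosomal subunit, loaded with eIF1, eIF1A, eIF3, eIF5 and the complex of eIF2, GTP and initiator tRNA, is recruited to the capped end of an mRNA by eIF4F, which joins the cap-binding protein eIF4E, the scaffold eIF4G and the RNA helicase eIF4A; it then scans to the start codon. Control acts mainly at 2 points: eIF4E-binding proteins, when not phosphorylated by mTORC1, keep eIF4E from eIF4G, and phosphorylation of eIF2 under stress blocks the exchange factor eIF2B, which lowers general translation while ATF4 is made. In testis, many mRNAs are stored in round spermatids and translated only later in spermatid elongation, so translation is under strong control there.

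In testis, 26 of the 37 initiation factor genes differed between genotypes, 20 higher and 6 lower in the knockout. Outside testis 3 differences were called: Eif4e2 was higher in knockout liver, and Eif4ebp1 and Eif3c were higher in knockout heart. No member was called in skeletal muscle or in brain. A difference was called at a Benjamini-Hochberg adjusted p under 0.05 over all genes, from 1 limma fit of the 10 group means.

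**Figure D1:**
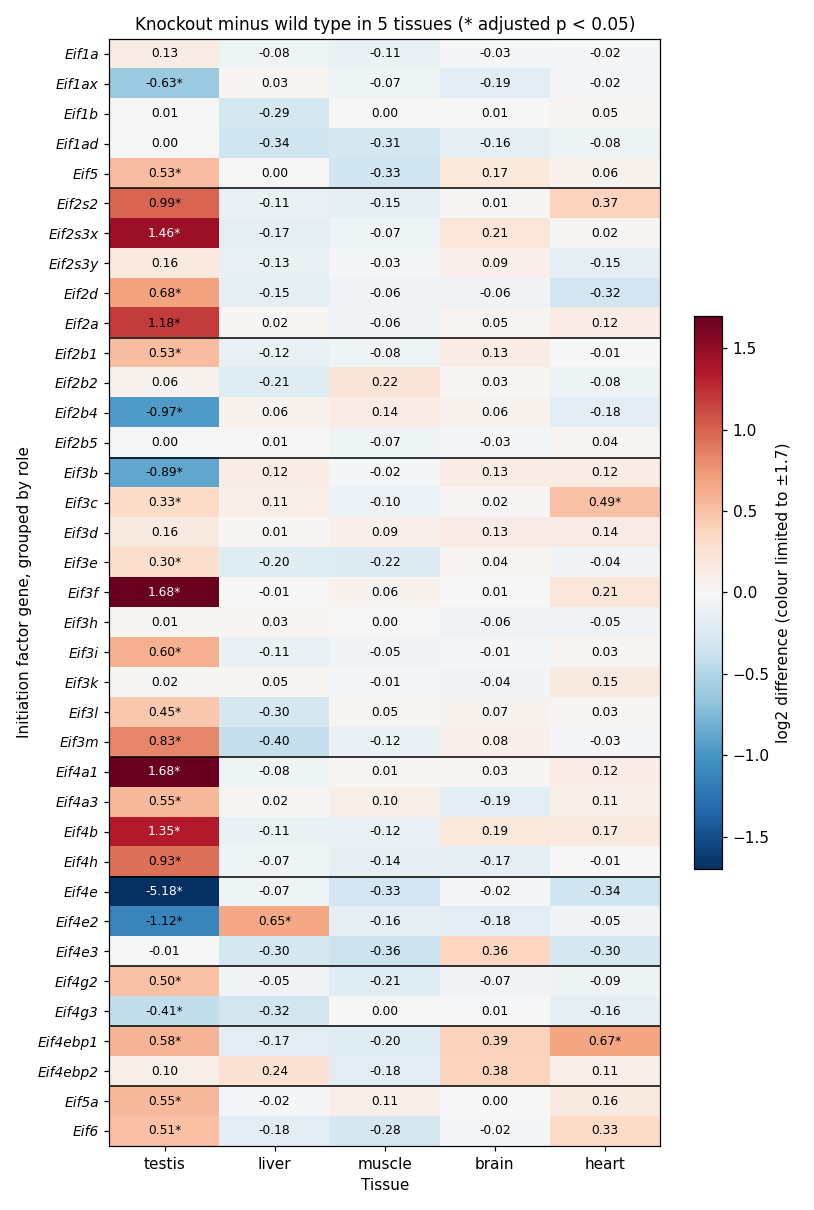
Knockout minus wild-type difference in log2 expression for each of the 37 initiation factor genes (rows, grouped by role) in 5 tissues (columns), from means of 3 arrays per group. Colour is limited to 1.7 in either direction, and an asterisk marks an adjusted p under 0.05. Testis holds 26 asterisks, liver 1, heart 2, muscle and brain 0.

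The 26 members called in testis are 70.3% of the list, against 56.2% of all genes. Members called higher were 54.1% of the list against 32.8% of all genes, and members called lower were 16.2% against 23.4%. These factors are abundant transcripts, however, and abundant genes as a whole shifted. Among the 5168 genes with a mean log2 level of at least 6, 80.0% were called, 62.9% higher and 17.1% lower. Of the 35 members above that level, 71.4% were called, 57.1% higher and 14.3% lower. The median difference was 0.33 over the members and 0.02 over all genes; above a mean level of 6 it was 0.45 for members and 0.69 for genes. Read against genes of similar level, the initiation factors therefore did not stand out by the share that changed or by the direction.

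Cell type markers moved with genotype on the same testis arrays. All 12 markers of elongating spermatids fell, and their mean was 6.89 to 7.85 in knockout against 11.63 to 12.07 in wild-type testis. All 8 measured round spermatid markers fell too, with means of 5.07 to 6.57 against 9.62 to 10.00. All 8 Sertoli cell markers rose, from 4.96 to 5.15 in wild-type to 6.67 to 6.93 in knockout testis, as did all 6 Leydig cell markers, 5 of 6 macrophage markers, 5 of 8 spermatogonial markers and 6 of 9 spermatocyte markers, with 1 of the last falling. The probe sets at the 3′ and 5′ ends of Gapdh differed by 0.55 ± 0.04 in knockout and by 0.98 ± 0.17 in wild-type testis (SD, n = 3). The part of these shifts in the values below was not tested, and in whole tissue fewer cells of a type cannot be told apart from less RNA per cell.

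All 4 measured members of the eIF4A, eIF4B and eIF4H group were called higher in knockout testis, where 62.9% of genes of similar level were; a further probe set of Eif4b went the other way. Eif4a1 encodes the helicase that unwinds mRNA leaders as part of eIF4F. It was at 11.23, 11.25 and 11.03 in knockout replicates 1 to 3 and at 9.52, 9.21 and 9.73 in wild-type replicates 1 to 3. Every knockout array lay above every wild-type array, and the difference was 1.68 ± 0.12 (SE; limma, adjusted p = 5.45e-12). Eif4b encodes an RNA-binding cofactor that stimulates eIF4A; its knockout values were 9.18, 9.21 and 9.13 and its wild-type values 7.795, 7.670 and 8.001. The groups did not overlap and differed by 1.35 ± 0.14 (limma, adjusted p = 5.08e-09). Eif4h, whose product is related to eIF4B and also stimulates the helicase, rose by 0.93 ± 0.09 from wild-type values of 9.12, 9.10 and 9.12 that were nearly the same on the 3 arrays. Eif4a3, a paralog of the helicase that sits in the exon junction complex on spliced mRNA, rose by 0.55 ± 0.10.

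Of the eIF2 group, 4 of 5 measured members rose, where 62.9% of genes of similar level were called higher. This group carries initiator tRNA to the ribosome. The gamma subunit, which binds GTP and the tRNA, is encoded by an X-linked and a Y-linked copy. The X-linked copy, Eif2s3x, read 7.07, 6.87 and 6.78 in knockout testis and 4.997, 5.068 and 6.270 in wild-type testis, a difference of 1.46 ± 0.19 (limma, adjusted p = 3.67e-07). Wild-type replicate 3, the array with epididymal transcripts, stood nearest the knockouts, and without it the difference was 1.87. The Y-linked copy, Eif2s3y, read 7.52, 7.11 and 7.01 against 6.88, 7.33 and 6.95, so the groups overlapped and the difference of 0.16 ± 0.15 was not called. The beta subunit gene Eif2s2 rose by 0.99 ± 0.11. Eif2a and Eif2d, which encode separate proteins able to deliver tRNA to the ribosome without eIF2, rose by 1.18 ± 0.13 and 0.68 ± 0.13.

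The subunits of eIF2B, the exchange factor that reloads eIF2 with GTP, moved apart. Eif2b4, for the delta subunit, fell by 0.97 ± 0.13, from 8.53, 8.55 and 8.53 in wild-type testis to 7.36, 7.57 and 7.78 in knockout testis. The wild-type values were almost equal and all 3 knockout values lay below them. Eif2b1, for the alpha subunit, rose by 0.53 ± 0.10. Eif2b2 differed by 0.06 ± 0.12, with no call. Eif2b5, which encodes the catalytic subunit, lay between 2.44 and 2.86 on all 30 arrays, below the array medians of 3.24 to 3.38, so its difference of 0.00 says little about the gene.

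The large scaffold eIF3, which holds the small subunit and bridges it to eIF4G, had 10 measured subunits, of which 6 rose and 1 fell. Among genes of similar level, 62.9% were called higher and 17.1% lower. Eif3f changed most: the knockout arrays read 12.14, 12.10 and 12.00 and the wild-type arrays 10.21, 9.96 and 11.03, a difference of 1.68 ± 0.16 (limma, adjusted p = 1.81e-09). Wild-type replicate 3 again lay nearest the knockouts, and without it the difference was 1.999. A second Eif3f probe set, with a mean level of 9.86, was not called in testis, as given below. Eif3m rose by 0.83 ± 0.12, Eif3i, part of the module at the mRNA entry side, by 0.60 ± 0.11, and Eif3l, Eif3c and Eif3e by 0.45, 0.33 and 0.30. Eif3b, the scaffold of the module that holds Eif3i, went the other way, from 9.58, 9.25 and 9.36 in wild-type to 8.56, 8.31 and 8.66 in knockout testis, a fall by 0.89 ± 0.11. Subunits of 1 complex thus did not shift together, and Eif3d, Eif3h and Eif3k differed by 0.16, 0.01 and 0.02 with no call.

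On the probe sets used, none of the cap-binding proteins was higher in knockout testis. The probe set of Eif4e, the cap-binding subunit of eIF4F, read 9.79, 9.46 and 9.69 in wild-type and 4.46, 4.06 and 4.88 in knockout testis. This difference of -5.18 ± 0.18 (limma, adjusted p = 8.75e-18) was the largest of any member in any tissue. It speaks only for the stretch of transcript that this probe set reads: on the 24 arrays of the other tissues, where Eif4e is known to be expressed, the same probe set stayed between 2.64 and 4.03, near the array medians. Eif4e2 encodes a cap-binding homologue that does not bind eIF4G and represses translation of its targets. It fell by 1.12 ± 0.17, from 8.52, 8.56 and 8.37 to 7.05, 7.47 and 7.56 (limma, adjusted p = 3.92e-06), with all knockout arrays below all wild-type arrays. Eif4e3, a further homologue, differed by -0.01 ± 0.22 and was not called.

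The scaffolds split as well. Eif4g2, whose product resembles the carboxy-terminal part of eIF4G and serves initiation without eIF4E, rose by 0.50 ± 0.12. Eif4g3, a full-length eIF4G paralog needed for male meiosis, fell by 0.41 ± 0.11, from 10.01, 9.94 and 9.95 to 9.61, 9.46 and 9.58 (limma, adjusted p = 0.00171). Of the inhibitors of eIF4E, Eif4ebp1 rose by 0.58 ± 0.16 and Eif4ebp2 differed by 0.10 ± 0.20 without a call.

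Among the factors that act at the start codon and after, Eif1ax fell by 0.63 ± 0.10, from 9.40, 9.56 and 9.58 to 8.82, 9.01 and 8.83. Its product, eIF1A, keeps the scanning ribosome open and helps select the start codon. Eif5, for the GTPase-activating protein of eIF2, rose by 0.53 ± 0.11. Eif1a, Eif1b and Eif1ad differed by 0.13, 0.01 and 0.00 and were not called. Eif5a, which acts mainly in elongation, and Eif6, which keeps the ribosomal subunits apart until the large one is mature, rose by 0.55 ± 0.09 and 0.51 ± 0.13.

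**Figure D2:**
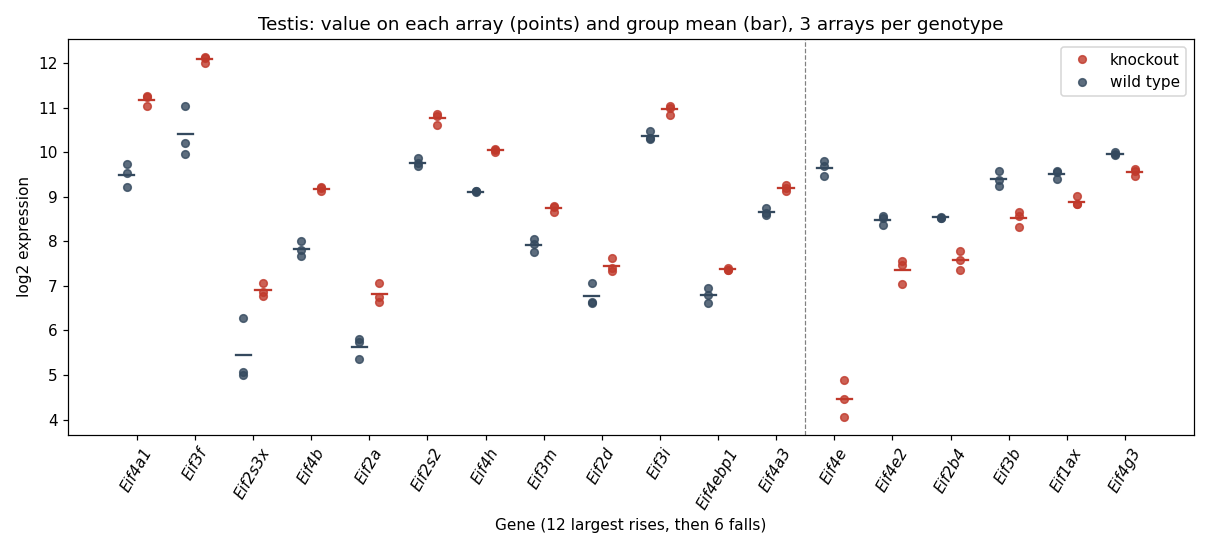
Log2 expression in testis for the 12 members with the largest rise and the 6 that fell, left and right of the dashed line. Points are arrays, 3 per genotype, and bars are group means. The genotypes overlap for none of these 18 genes, and wild-type Eif3f and Eif2s3x each have 1 array (replicate 3) well above the other wild-type arrays.

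In all, 20 members (54.1%) had every knockout testis array above every wild-type one and 6 (16.2%) had the reverse order, against 35.3% and 28.2% of all genes. These shares were not computed for genes of similar level, of which 62.9% were called higher in testis. Leaving out the testis and muscle arrays with transcripts of another tissue left 25 testis calls, 19 higher and 6 lower.

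Probe sets that read different stretches of the same transcript did not always move alike, and this bears on several of the calls above. The members had 45 further probe sets, 21 of them with a mean level of at least 6. Of the 19 of these that belong to members called in testis, 9 were called in the same direction as the probe set used, with p-values adjusted over all 28898 probe sets that read 1 gene. The probe sets of Eif4a1 gave 1.68 and 1.79, those of Eif2s3x gave 1.46 and 1.63, and Eif4e2 had 4 further probe sets, of which 3 were called at -1.11, -1.14 and -1.43 and the dimmest, with a mean level of 3.21, was not (0.06). For Eif3f, in contrast, the second probe set differed by 0.06 ± 0.09.

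For 3 genes, probe sets were called in opposite directions. Eif1ax gave -0.63 ± 0.10 on the probe set used and 1.77 ± 0.16 on the other. Eif4b gave 1.35 and 1.19 on 2 probe sets and -1.17 ± 0.14 on the third. Eif5 gave 0.53 and 0.50 on 2 probe sets and -0.94 ± 0.17 on another. No direction for the whole gene follows for these 3 genes. A second probe set of Eif1a rose by 1.23 ± 0.15 and one of Eif4e3 by 0.98 ± 0.20, where the probe set used was not called. Probe sets with _x_ or _s_ in their name can also match related transcripts, and this holds for those used for Eif2s3x, Eif3f, Eif3m, Eif4h and Eif5a. On probe sets without _x_, _s_ or _a_ in their name, Eif2s3x differed by 0.12, Eif2d by 0.08 and Eif4h by -0.33 in testis, none called. Those of Eif2s3x and Eif2d are dim, with means of 3.15 and 2.75. The Eif2d probe set used, which rose by 0.68, has only _a_ in its name. So has the second Eif2s3x probe set given above, with a mean level of 7.75.

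**Figure D3:**
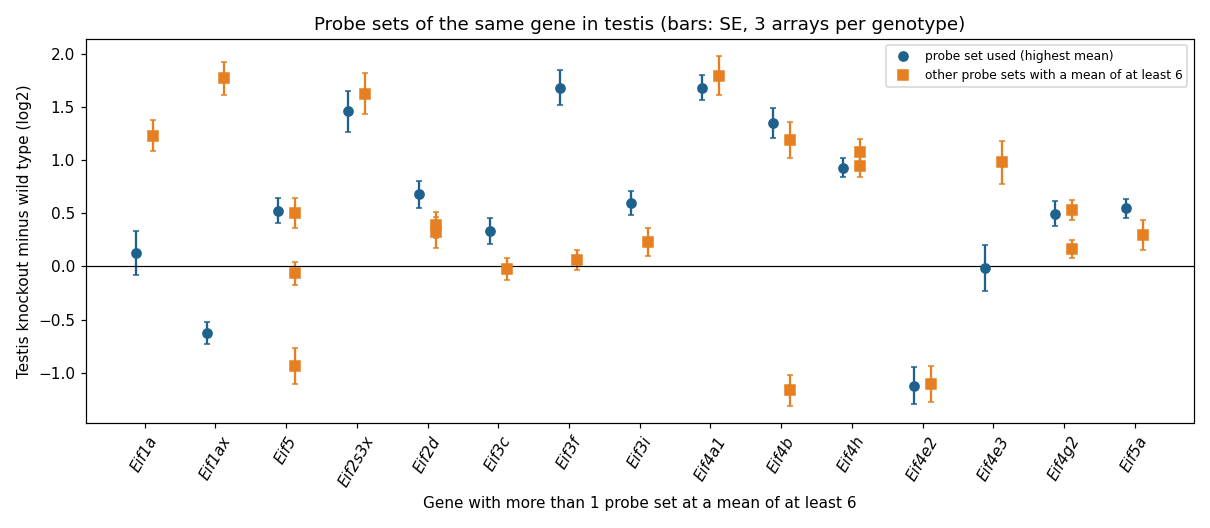
Testis knockout minus wild-type difference (log2, with SE from the fit, 3 arrays per genotype) for members read by more than 1 probe set with a mean level of at least 6. Circles are the probe sets used and squares the others. Eif4a1, Eif2s3x, Eif4h and Eif4e2 agree between the probe sets shown, while Eif1ax, Eif4b and Eif5 have values on both sides of 0. An Eif4h probe set with a mean level of 5.93 that differed by -0.33 is not shown.

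The windows just upstream of the start sites show what some of these genes share in sequence. RefSeq (GRCm38.p6) windows of the 250 bases before the start were available for 29 of the 37 members and for 27025 genes. The ETS core letters CCGGAAG, searched on both strands like every motif here, stood in the windows of 10 members (34.5%), against 7.83% of all genes and 18.6% of the 4251 genes with a window and a mean level of at least 6. The E-box CACGTG, the letters that Myc and related factors bind, stood in 7 members (24.1%), against 6.86% and 11.6%. The NRF1 motif stood in 3 members (10.3%), against 4.23% and 11.6%. Neither the cAMP response element TGACGTCA (1.77% of all genes) nor the letters TGATGNAAT of the element read by ATF4 (0.91%) was found in any of the 29 windows. No printed match overlaps another, and a match describes the sequence only. Of these windows 4 are printed, 5′ to 3′ on the strand of the gene with the motif in capitals: Eif3c and Eif3m, 2 of the 3 eIF3 subunits called in testis that carry an ETS core (Eif3l is the third), Eif3c being called in heart too, and the 2 members with the largest rise in testis, which carry an E-box.
Eif3c, ETS core on the reverse strand at bases 183 and 217, chr7:126566367-126566616, minus strand: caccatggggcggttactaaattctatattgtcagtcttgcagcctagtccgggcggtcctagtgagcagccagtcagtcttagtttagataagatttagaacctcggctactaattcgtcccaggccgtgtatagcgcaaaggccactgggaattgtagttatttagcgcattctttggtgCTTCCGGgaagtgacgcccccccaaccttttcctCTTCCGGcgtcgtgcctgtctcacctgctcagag
Eif3m, ETS core at base 196, chr2:105017028-105017277, minus strand: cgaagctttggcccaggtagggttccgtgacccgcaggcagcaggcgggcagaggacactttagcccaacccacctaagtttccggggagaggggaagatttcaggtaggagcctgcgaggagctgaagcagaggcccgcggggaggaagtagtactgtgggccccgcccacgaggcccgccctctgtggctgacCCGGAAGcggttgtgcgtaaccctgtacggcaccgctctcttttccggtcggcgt
Eif4a1, E-box at base 62, chr11:69672424-69672673, minus strand: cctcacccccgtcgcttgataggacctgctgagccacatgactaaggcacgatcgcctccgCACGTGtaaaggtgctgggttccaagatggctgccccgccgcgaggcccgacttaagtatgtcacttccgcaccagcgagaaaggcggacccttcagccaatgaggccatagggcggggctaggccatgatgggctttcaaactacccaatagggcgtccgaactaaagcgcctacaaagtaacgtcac
Eif3f, E-box at base 183, chr7:108934165-108934414, plus strand: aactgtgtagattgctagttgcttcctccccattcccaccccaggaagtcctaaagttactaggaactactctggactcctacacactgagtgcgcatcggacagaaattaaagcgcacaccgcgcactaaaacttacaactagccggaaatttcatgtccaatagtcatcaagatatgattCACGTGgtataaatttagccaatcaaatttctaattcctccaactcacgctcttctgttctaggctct

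Outside testis the initiation factors differed little between genotypes. For the mean of liver, muscle, brain and heart, no member was called by limma, against 4.02% of all genes. At an unadjusted p under 0.05 there were 7 members (18.9%), against 18.2% of all genes. The 37 differences lay between -0.22 and 0.17, with a median of -0.02. All 37 of the 95% confidence intervals lay within 0.5 of 0 on the log2 scale, and the bound farthest from 0 was 0.42 in size, for Eif1ad. The smallest adjusted p was 0.203, for Eif2d at -0.15 ± 0.06. Within single tissues the intervals were wider, and 36 members in liver, 37 in muscle, 37 in brain and 36 in heart had intervals within 1 of 0.

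In liver, 1 member was called, which is 2.70% of the list against 2.42% of all genes, 0.912% of them called higher. This was Eif4e2, at 8.10, 7.84 and 7.67 in knockout replicates 1 to 3 and at 7.15, 7.44 and 7.06 in wild-type replicates 1 to 3. The groups did not overlap, and the difference was 0.65 ± 0.17 (limma, adjusted p = 0.0433). The 4 further probe sets of the gene gave -0.07, -0.37, -0.10 and 0.05, none called, so the rise was seen on 1 of 5 probe sets. The call was lost when liver was fitted alone (adjusted p = 0.194), with the replicate number as a block (adjusted p = 0.0609), with array weights (adjusted p = 0.0944), with median centring (adjusted p = 0.0629), with the mean of all probe sets of the gene (a difference of 0.03, adjusted p = 0.977), and without knockout replicate 1 (adjusted p = 0.219), knockout replicate 2 (0.0899), wild-type replicate 1 (0.114) or wild-type replicate 3 (0.163). Eif3m had the next smallest p, with a difference of -0.40 ± 0.12 that missed the threshold (limma, adjusted p = 0.0748).

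In heart, 2 members were called, 5.41% of the list against 2.18% of all genes, 1.11% of them called higher. Eif4ebp1 encodes the main eIF4E-binding inhibitor and is a known target of ATF4. Its heart values were 9.72, 9.74 and 9.89 in knockout and 9.25, 9.21 and 8.89 in wild-type mice, a difference of 0.67 ± 0.16 (limma, adjusted p = 0.0248). The groups did not overlap. A second, dimmer probe set, with a mean level of 3.75, differed by 0.21 ± 0.23. In brain, where the gene was lowest, Eif4ebp1 differed by 0.39 ± 0.16 (limma, adjusted p = 0.527), and in liver and muscle by -0.17 and -0.20, neither called.

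Eif3c, for a core subunit of eIF3, read 9.40, 9.59 and 9.93 in knockout and 9.17, 9.15 and 9.13 in wild-type heart. The difference was 0.49 ± 0.12 (limma, adjusted p = 0.0299), the knockout arrays were spread more widely than the wild-type ones, and the groups did not overlap. The second probe set of Eif3c gave 0.43 ± 0.10 and was called too (adjusted p = 0.0298 over all probe sets). In testis the probe set used rose by 0.33 ± 0.12, and in muscle it differed by -0.10. Eif2s2 followed in heart at 0.37 ± 0.11, just short of the threshold (limma, adjusted p = 0.0740).

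Neither heart call held under every fit. With heart fitted alone, adjusted p was 0.0823 for Eif4ebp1 and 0.204 for Eif3c, and with the replicate block Eif3c had 0.0566. Without knockout replicate 2, knockout replicate 3, wild-type replicate 2 or wild-type replicate 3, Eif4ebp1 had an adjusted p of 0.0736, 0.110, 0.0539 and 0.149, and Eif3c had 0.0761, 0.212, 0.0933 and 0.0989; without wild-type replicate 1 Eif3c had 0.0772. With the mean of all probe sets of the gene, Eif4ebp1 had 0.139.

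Markers moved with the knockout heart arrays as well. The mean of 5 cardiomyocyte markers was 10.23, 12.65 and 12.73 in knockout replicates 1 to 3 and 11.06, 10.60 and 10.42 in wild-type replicates 1 to 3. The rise on knockout replicates 2 and 3 came from Myl7 and from Nppa, the atrial natriuretic peptide, which read 9.30, 13.06 and 13.14 in knockout and 9.64, 10.79 and 11.06 in wild-type heart. Tnni3, Tnnt2 and Mybpc3, which atria and ventricles share, lay between 11.65 and 13.31 on all 6 arrays. With both of these knockout arrays left out, an alternative chosen after seeing the data, 1 knockout heart array remained and was assumed to vary like the other groups. Eif4ebp1 then differed by 0.61 ± 0.24 and Eif3c by 0.25 ± 0.16, against 0.67 and 0.49 with all arrays. Neither heart call remained, but with 1 knockout array the standard errors were wider. A lost call can come from that alone. The part of the atrial transcripts in the heart calls was not tested further.

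**Figure D4:**
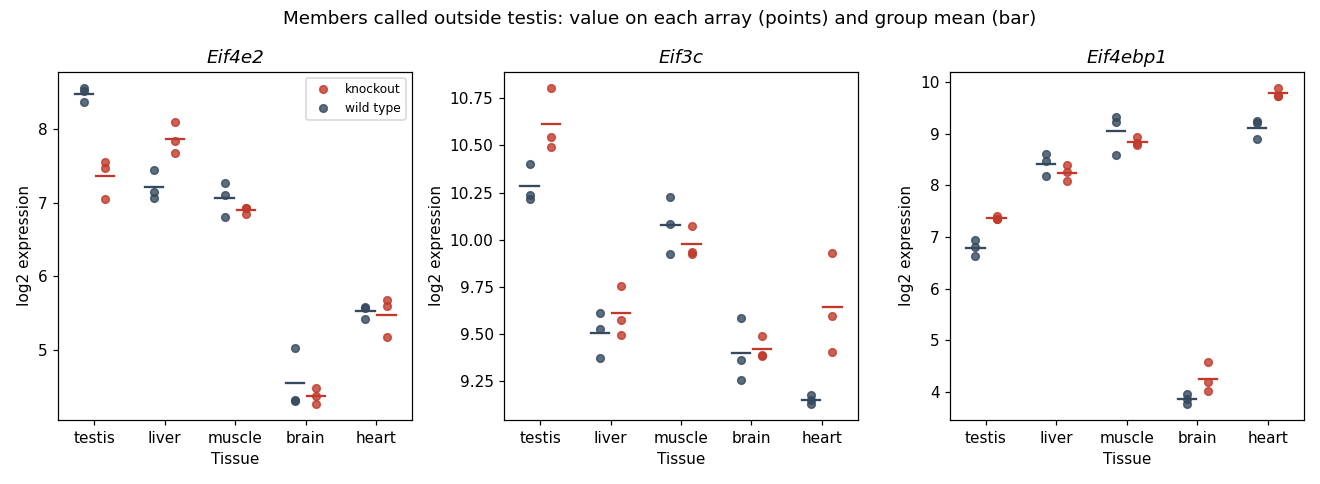
Log2 expression of the 3 members called outside testis, in all 5 tissues; points are arrays, 3 per group, bars are group means, and each panel has its own vertical scale. Eif4e2 separates the genotypes upward in liver (0.65) and downward in testis (-1.12), and Eif4ebp1 and Eif3c are higher in knockout heart by 0.67 and 0.49.

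In skeletal muscle no member was called by limma, against 1.54% of all genes, and 2 members (5.41%) had an unadjusted p under 0.05 against 12.8% of all genes. None was called either without the muscle and testis arrays with transcripts of another tissue. The members with an unadjusted p under 0.05 were Eif5 at -0.33 ± 0.11 (adjusted p = 0.166) and Eif6 at -0.28 ± 0.13. All 6 slow-fibre markers were higher in knockout muscle, with list means of 10.53 to 10.92 against 4.89 to 8.16, while the initiation factors had a median difference of -0.07. In brain no member was called by limma, against 0.415% of all genes, and the only member with an unadjusted p under 0.05 was Eif4ebp1, where 7.91% of all genes had one.

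The knockout effect itself differed between the 5 tissues for 25 of 37 members by the moderated F test (67.6%), against 52.3% of all genes. The share for genes of similar level was not computed. The largest F values belonged to Eif4e, Eif4a1, Eif4h, Eif3f and Eif4b, for which the testis difference stood apart from the others. Eif4a1, at 1.68 in testis, was at -0.08 in liver, 0.01 in muscle, 0.03 in brain and 0.12 in heart. Among liver, muscle, brain and heart alone, no member differed in effect by this limma F test, against 1.66% of all genes, and 7 members (18.9%) had an unadjusted p under 0.05 against 14.0% of all genes. Eif4ebp1 came nearest (F = 6.98, adjusted p = 0.0711), followed by Eif4e2 (F = 5.16, adjusted p = 0.147), Eif2s2 (F = 4.81), Eif3c (F = 4.33) and Eif6 (F = 4.06). Eif4ebp1 was called in this test with array weights (F = 6.43, limma, adjusted p = 0.0451), after a second quantile scaling (F = 8.02, adjusted p = 0.0443), without liver wild-type replicate 2 (F = 8.04, adjusted p = 0.0486) and without muscle wild-type replicate 2 (F = 12.8, adjusted p = 0.0061). In the fit of all arrays, neither the heart rise of Eif4ebp1 nor the liver rise of Eif4e2 was shown to differ from the other tissues.

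Other genes of translation and of its stress response were followed on a list of 48, of which 44 were measured. In testis 20 rose and 4 fell, so that 54.5% were called and 45.5% rose, against 56.2% and 32.8% of all genes. Among genes with a mean level of at least 6, 80.0% were called and 62.9% rose. Ddx3x, for an RNA helicase that aids scanning on structured leaders, rose by 1.90 ± 0.15, and Etf1, for the release factor that reads stop codons, by 1.72 ± 0.18. The eIF2 kinase genes Eif2ak3 and Eif2ak4 rose by 1.19 ± 0.23 and 1.32 ± 0.19, and Ppp1r15b, for a phosphatase subunit that reverses their action, by 1.61 ± 0.11. Mcts2 fell by 1.54 ± 0.15, and the elongation factor genes Eef1d and Eef1g by 1.27 ± 0.10 and 0.73 ± 0.10. Atf4 rose by 1.77 ± 0.15 in testis, and Chac1, Ppp1r15a and Sesn2 by 1.81 ± 0.53, 1.07 ± 0.22 and 0.75 ± 0.17. Asns, Trib3 and Ddit3 were not called there.

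In heart 6 genes of that list rose and none fell, 13.6% of the list against 2.18% of all genes. The list was chosen with earlier results of these data known, so its shares describe the list only. Atf4, for the transcription factor made when eIF2 is phosphorylated, rose by 0.89 ± 0.15 (limma, adjusted p = 0.000655). Its known targets Asns, Trib3, Chac1 and Ddit3 rose by 4.19 ± 0.45, 2.22 ± 0.29, 2.58 ± 0.53 and 1.04 ± 0.26. Eef1a1, which delivers tRNA during elongation, rose by 0.67 ± 0.13. With both knockout arrays of high atrial transcripts left out, Asns (3.60 ± 0.62) and Trib3 (1.23 ± 0.20) were still called. Atf4 (0.55 ± 0.18), Chac1, Ddit3 and Eef1a1 were not, with wider standard errors than in the fit of all arrays. In liver, muscle and brain the count was 0 in each. For the mean of the 4 tissues, 11.4% of the list was called against 4.02% of all genes. Atf4, Trib3, Sesn2 and Ppp1r15a rose by 0.34, 0.70, 0.36 and 0.43, and Dhx29, for a helicase that aids the scanning ribosome, fell by 0.25. Heart had the largest Trib3 value, 2.22 against 0.41, 0.07 and 0.09 in liver, muscle and brain. The same held for Atf4 (0.89 against 0.14, -0.12 and 0.45) and Ppp1r15a (0.83 against 0.42, 0.13 and 0.33). Sesn2 was largest in muscle, at 0.58, with 0.45 in heart. In heart, then, Eif4ebp1 and Eif3c were called beside the 6 genes of that list, and 35 of 37 initiation factors were not.

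The wild-type arrays show where each factor is high or low in mice that have ClpP. Each wild-type tissue was compared with the mean of the other 4. In testis 31 of 37 members differed, 18 higher and 13 lower (72.8% of all genes were called, 32.1% higher and 40.7% lower). In liver 29 differed, 15 higher and 14 lower (66.3% of all genes, 25.5% higher and 40.8% lower). In skeletal muscle 31 differed, 23 higher and 8 lower (63.7% of all genes, 26.3% higher and 37.4% lower), with a median of 0.49 over the members against -0.08 over all genes. Above a mean level of 6 the muscle median was 0.49 for members and 0.26 for genes, so abundant genes shared part of this shift. In brain 26 differed, 5 higher and 21 lower (74.7% of all genes, 28.1% higher and 46.5% lower), with a median of -0.36 against -0.20. Above a mean level of 6 the brain median was -0.36 for members and -0.11 for genes. In heart 23 differed, 11 higher and 12 lower (61.1% of all genes, 27.5% higher and 33.6% lower). Without both the testis array with epididymal and the muscle array with sperm transcripts, testis had 31 members called, 18 higher and 13 lower, and muscle 29, 22 higher and 7 lower.

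The factors around the cap differed between wild-type tissues. Eif4ebp1 was high in heart, at 9.25, 9.21 and 8.89, and in muscle, at 9.33, 8.58 and 9.22, which overlap. In liver, with arrays from 8.18 to 8.62 and a mean of 8.42 ± 0.22 (SD, n = 3), it lay below heart but overlapped the lowest muscle array, and it was lower in testis at 6.79 ± 0.16, and lowest in brain at 3.86 ± 0.10. Brain stood 4.48 ± 0.13 below the mean of the other 4 tissues (SE; limma, adjusted p = 1.92e-20). On the probe set used, Eif4ebp2, a second inhibitor of the family, was highest in liver (8.21 ± 0.04, SD, n = 3) and lowest in brain (4.10 ± 0.01), 2.66 ± 0.16 below the others. On dimmer probe sets, with mean levels of 4.55, 3.71 and 3.30, muscle stood 1.94, 1.37 and 0.67 above the other tissues. Liver stood 1.89, 0.73 and 0.52 above them. On the first of these, testis (-1.56) lay below brain (-1.40). The dimmest probe set, with a mean level of 2.56, was called in neither liver nor muscle.

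The cap-binding genes were spread over different tissues. Eif4e3 was highest in heart (9.20 ± 0.05, SD, n = 3) and muscle (9.02 ± 0.16), where the lowest heart array and the highest muscle array both read 9.16, and lower in brain, liver and testis (6.92, 6.42 and 6.01), with 1 liver array, wild-type replicate 3, at 7.21 against 6.05 and 6.00. Eif4e2 was highest in testis on the probe set used (8.48 ± 0.10), followed by liver (7.22 ± 0.20) and muscle (7.06 ± 0.23), which overlap, then heart (5.53 ± 0.09) and brain (4.55 ± 0.41). A further probe set, with a mean level of 6.16, gave the same order. On dimmer ones, with mean levels of 5.54 and 3.56, testis was again highest. Liver stood -0.64 and -0.53 from the other tissues on these, below heart at -0.56 and -0.01. The dimmest, with a mean level of 3.21, was called in no tissue. The Eif4e probe set stood 6.28 ± 0.15 higher in testis than in the other wild-type tissues (SE; limma, adjusted p = 8.77e-23).

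In wild-type testis, Eif2s3x and Eif3f were the members farthest below the other tissues, by -3.48 ± 0.15 and -2.50 ± 0.13, and by -3.89 and -2.81 without the testis and muscle arrays with transcripts of another tissue. A second probe set of Eif2s3x gave -3.67 ± 0.15, whereas that of Eif3f, with a mean level of 9.86, gave -0.18 ± 0.07, so the size of the Eif3f difference rests on 1 probe set. Eif2s3x averaged 5.44 in wild-type testis and 8.78 to 9.15 in the other wild-type tissues, and Eif3f averaged 10.40 against 12.67 to 13.33. In knockout testis both were higher, at means of 6.91 and 12.08, still below every other wild-type tissue. Both comparisons use the same 3 wild-type testis arrays, so the values are given side by side and not set against each other. Eif1b, for a close relative of the start codon factor eIF1, was highest in testis (10.39 ± 0.12, SD, n = 3) and brain (9.85 ± 0.13) and lowest in liver (7.76 ± 0.17), where it stood 1.67 ± 0.09 below the other tissues. Eif1a was highest in liver (8.29 ± 0.47) and testis (7.79 ± 0.18), which overlap, and lower in heart (5.82 ± 0.26) and muscle (5.98 ± 0.02). In muscle Eif2a was 1.37 ± 0.11 above the other tissues.

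By role, all 5 start codon and scanning genes were higher in wild-type testis than in the other tissues, led by Eif1b at 1.62 and Eif1ax at 1.17 on the probe sets used. Further probe sets of Eif1ax and Eif1a were lower there, at -3.31 ± 0.12 and -0.48 ± 0.12, as was a dimmer one of Eif5 at -1.76, so no direction follows for these 3 genes as a whole. Of the 10 eIF3 subunits, 6 were higher and 3 lower there, with Eif3b at 1.83 ± 0.09 the highest and Eif3f the lowest. All 5 genes of the eIF2 group were higher in muscle, Eif2s2 by 1.26 and Eif2d by 0.93, and 3 of 4 eIF2B genes were higher in muscle and lower in brain, Eif2b1 by 1.17 and -1.07. In brain 7 of 10 eIF3 subunits were lower and 1, Eif3f, was higher on the probe set used. The second probe set of Eif3f differed there by 0.02 ± 0.07 and was not called. Eif3b was lowest in brain at -1.74. Among the 4 genes of the eIF4A, eIF4B and eIF4H group, only Eif4h was called in brain on the probe sets used, where it was 1.22 higher. A further probe set of Eif4b, with a mean level of 7.01, was lower in brain, at -2.04 ± 0.11.

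**Figure D5:**
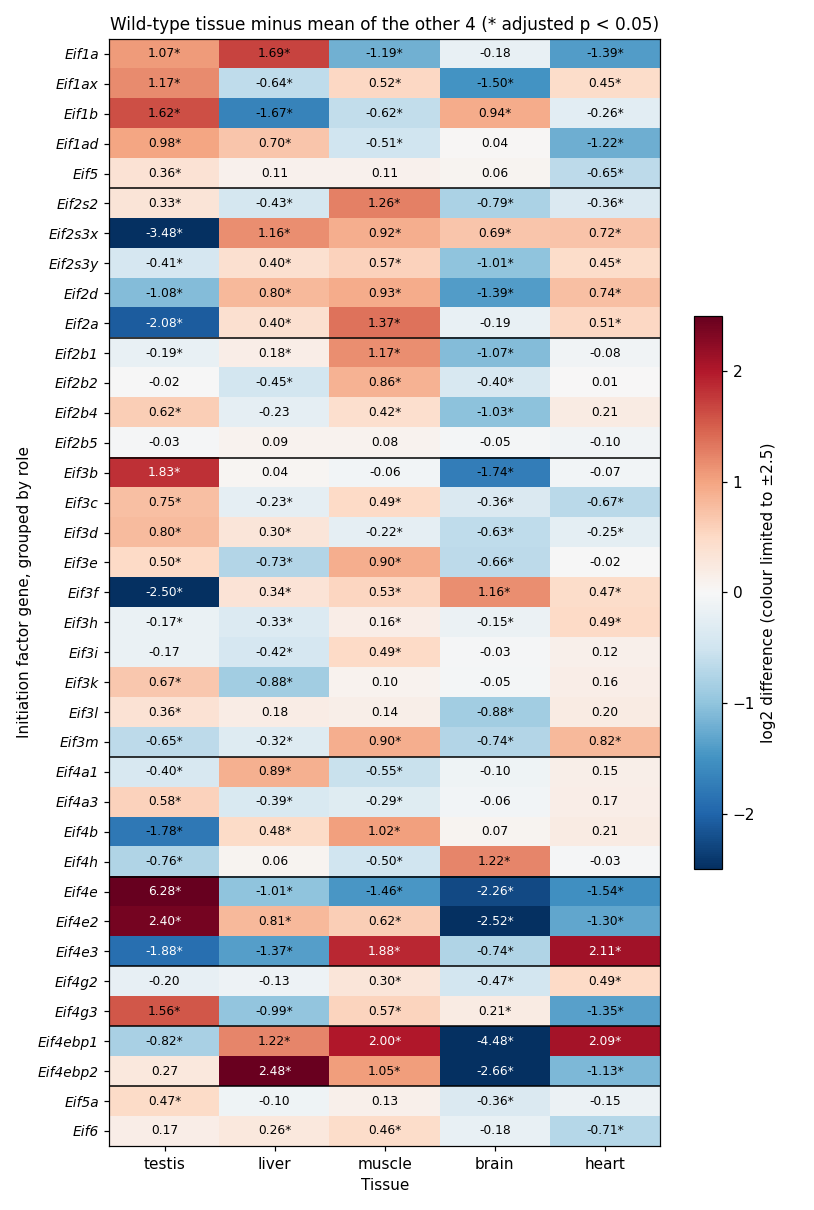
Difference in log2 expression between each wild-type tissue (columns, 3 arrays) and the mean of the other 4 wild-type tissues, for the 37 members grouped by role. Colour is limited to 2.5 in either direction, and an asterisk marks an adjusted p under 0.05. Brain has 21 members lower and 5 higher, muscle 23 higher and 8 lower.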

How the data were processed

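Expression was measured on 30 Affymetrix arrays, 3 per genotype in each of 5 tissues. The authors deposited 1 table of log2 values for 45141 probe sets, normalized by RMA in R 2.14.0 per the submitters' processing notes; whether all arrays were normalized together is not given in the sources used here. RMA pulls arrays to a common distribution, so a shift of most transcripts one way is partly removed. Of the probe sets, 28898 name 1 gene, 551 several and 15692 none in the platform annotation, and only the first kind was used. Each of 17097 genes was read through its probe set with the highest mean, and 7180 genes had more than 1. Detection calls were not used here.

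All 10 group means were fitted at once with limma 3.58.1 in R 4.3.3 (20 residual degrees of freedom), and two-sided p-values were adjusted by Benjamini-Hochberg over all genes within each comparison. The fit was tested on simulated data. Members named are all those called outside testis, the 12 largest rises and falls in testis, the 5 smallest p-values of each F test and up to 4 members per wild-type tissue, besides paralogs; other members are given for description. The members, marker lists and the translation list were chosen with earlier results of these data known. Alternatives were each tissue alone, a replicate block, array weights, other scalings, other probe set choices and each array left out. Beside the marker lists in the text, hepatocyte, fast-muscle, neuron and glia lists served only to check the tissues. The cardiomyocyte list also served to describe the atrial transcripts in knockout heart.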

Additional observations from a re-analysis of the deposited data

Results flagged for a closer look

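The knockout effect differed between the 5 tissues most clearly for Eif4e (moderated F = 148), Eif4a1 (F = 39.5), Eif4h (F = 25.8), Eif3f (F = 20.0) and Eif4b (F = 19.3), each by limma's test of the difference itself. In each of these the testis value set the difference. Eif4b has a further probe set of opposite sign in testis, and the second probe set of Eif3f was not called there. On the Eif4h probe set without _x_, _s_ or _a_ in its name, F was 2.67 (limma, adjusted p = 0.101).

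A further 5 probe sets were left out of the comparisons because they join a factor with another gene, and several of them differed between genotypes. In testis, 3 probe sets annotated to both Eif5b, whose product joins the ribosomal subunits, and Psip1 differed by -1.15, -0.85 and 1.55, so they did not share a direction. The probe set shared by Snap47 and Eif4a1 differed by 1.24 in testis and that shared by Snora81 and Eif4a2 by 0.77. In liver the same 2 probe sets were lower in the knockout, by -0.52 (limma, adjusted p = 0.0284) and -0.39 (adjusted p = 0.0140), while the Eif4a1 probe set that reads this gene alone differed by -0.08 there and was not called.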

How the results depend on the processing

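The testis count of 26 was 24 to 26 with single arrays left out and 25 without both arrays that held transcripts of another tissue, an alternative added after seeing the data. Under a second quantile scaling it was 28, 23 higher and 5 lower, and 25 of the 26 were among them. Restricting to probe sets without _x_, _s_ or _a_ in their name, which tested 29 members, gave 17 in testis, 1 in muscle, and 19 and 17 members in wild-type liver and brain. Liver fell from 1 to 0 with each tissue fitted alone, with the replicate block, with median centring and with the mean of all probe sets. Heart fell from 2 to 0 with tissues fitted alone, to 1 with the replicate block and with the mean of all probe sets, and to 0 without both knockout heart arrays of high atrial transcripts. With single arrays left out, liver gave 0 to 2 and heart 0 to 3. Liver was at 0 without liver knockout 1, liver wild type 1, testis knockout 2, testis wild type 1, any knockout array of muscle or brain, muscle wild type 3 or any wild-type heart array, and at 2 without liver knockout 3; arrays of other tissues enter through the shared spread. Heart was at 0 without heart knockout 2 or 3 or wild type 2 or 3, and at 1 without wild type 1. The F test over 4 tissues called 1 member with array weights, 1 with the second quantile scaling and 0 to 1 with single arrays left out (1 without liver wild type 2 or muscle wild type 2).

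Directions reversed for Eif1ax in testis with the mean of all probe sets (0.57) and on the plain probe set (1.77), and on plain probe sets for Eif4h in testis (-0.33) and Eif4e2 in liver (-0.37); the probe set read is what differs in these. In testis, Eif4g3 was not called after the second quantile scaling (-0.21), nor Eif4ebp1 with the mean of all probe sets (0.33). The deviations of same-numbered arrays of the 2 genotypes from their group means correlated between -0.28 and 0.40 over the 5 tissues. In muscle all 3 correlations were positive, at 0.08, 0.09 and 0.40. With 3 arrays per group, these values cannot decide whether the numbers pair the samples. The replicate block kept 26 calls in testis and left 23 of 25 in the 5-tissue F test. With 3 arrays per group, differences under about 0.5 on the log2 scale were often not detectable in single tissues.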
